A study of Mus musculus with 8 samples.

Results

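The adipocyte genes described here are Adipoq, Cfd, Plin1, Cidec, Lpl, Fabp4, Pck1 and Car3, taken by their symbols from the deposited tables of dorsal root ganglion RNA. Each symbol stood on 1 row, which gave 8 genes of 48431 listed, and all 8 passed the filter on low values that left 14505 genes for testing. The ganglia, which hold the cell bodies of sensory neurons with their glia, came from wild-type mice of the stock labelled SW that had received saline, and no other strain, genotype or treatment was compared. Of the 8 libraries 4 were labelled male and 4 female. The sources used here do not state the animals' ages or whether a library held ganglia of 1 animal or of a pool. The p-values below therefore rest on the spread among libraries, part of which may be technical.

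Adipocytes store triglyceride in a lipid droplet, release it as fatty acids on demand, and secrete hormones and proteins into the blood. Fat cells lie around spinal roots, ganglia and nerve trunks rather than among sensory neurons. Adiponectin (Adipoq), perilipin 1 (Plin1), Cidec and adipsin (Cfd) are made largely by adipocytes in mice. Lipoprotein lipase (Lpl) and Fabp4 are also made by macrophages, and Fabp4 by capillary endothelium. The cytosolic phosphoenolpyruvate carboxykinase (Pck1) is also a gene of liver and kidney, and carbonic anhydrase 3 (Car3) one of skeletal muscle and liver.

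Values are in CPM, reads per 1000000 counted reads of a library. The libraries held between 7497795 and 12155804 counted reads, and 3 reads corresponded to between 0.247 and 0.400 CPM. Libraries are named by label and number. In both replicate 1 libraries the sex genes went against the label, with the RNA Xist, which silences an X chromosome, at 294 CPM in the library labelled male 1 and at 0.270 CPM in that labelled female 1. Male 2 held central nervous system transcripts, with 6 marker genes summing to 289 CPM against 7.26 to 15.6 CPM in the other libraries. Sensory neuron markers, 10 of 10 tested, summed to between 5784 and 10035 CPM, which fits the labelled tissue.

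Upstream sequence from RefSeq (GRCm38.p6) was matched for 5 of the 8 genes, Adipoq, Cfd, Plin1, Cidec and Pck1, with 6 start sites. The 250 bases before the start are shown for the 3 windows that held a match to a searched pattern; those of Cfd, Pck1 and a second Cidec start held none. Each is written 5′ to 3′ on the gene's strand, and capitals mark matches to the CCAAT box or to a pattern of C/EBP factors, TTGCNNAA, on either strand. C/EBP proteins are transcription factors of fat cell differentiation. Windows are set by RefSeq starts. By the gene positions given below, the Cidec window shown lies inside the gene, and those of Plin1 and Pck1 reach into it.
Adipoq, chr16:23146286-23146535, plus strand: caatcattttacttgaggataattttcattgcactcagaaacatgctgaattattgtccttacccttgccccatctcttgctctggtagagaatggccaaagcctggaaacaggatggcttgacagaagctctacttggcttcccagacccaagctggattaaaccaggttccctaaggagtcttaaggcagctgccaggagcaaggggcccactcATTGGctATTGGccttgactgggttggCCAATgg
Plin1, chr7:79732777-79733026, minus strand: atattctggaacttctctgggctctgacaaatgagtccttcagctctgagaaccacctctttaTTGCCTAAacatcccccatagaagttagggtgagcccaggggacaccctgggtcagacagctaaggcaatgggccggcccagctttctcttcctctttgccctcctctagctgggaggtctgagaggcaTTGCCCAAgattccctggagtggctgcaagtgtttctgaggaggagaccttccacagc
Cidec, chr6:113434765-113435014, minus strand: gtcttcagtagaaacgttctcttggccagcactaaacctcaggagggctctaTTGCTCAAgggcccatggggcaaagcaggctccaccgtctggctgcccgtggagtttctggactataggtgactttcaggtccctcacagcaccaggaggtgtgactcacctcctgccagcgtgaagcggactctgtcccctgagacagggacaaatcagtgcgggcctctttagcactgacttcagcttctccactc

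The pattern TTGCNNAA occurred in 2 of the 6 windows, those of Plin1 and of this Cidec start, and in 9.56% of all 32851 windows of the same length. The CCAAT box (CCAAT) occurred in 1 of the 6, that of Adipoq, with 3 matches, and in 33.9% of all windows. The TATA box (TATAAA), the core element of nuclear receptors (AGGTCA) and the direct repeat of that element spaced by 1 base, bound by PPAR gamma with its partner, had no match in the 6 windows, where 12.4%, 14% and 0.0335% of all windows had one. These letters describe the windows and do not show binding, and enhancers outside them were not searched.

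All 8 genes were lowest in the same 3 libraries, male 4, female 1 and female 3, 1 labelled male and 2 labelled female. The same order, with these 3 libraries below the other 5, was found in 8.33% of all tested genes, and the genes were chosen with earlier results of these data known. After median ratio scaling, which sets the libraries to a common level over all genes, 8 of 8 adipocyte genes and 6.09% of all tested genes had it. Summed over the 8 genes, the level was 767, 753, 805 and 215 CPM in male 1 to 4 and 199, 863, 285 and 1022 CPM in female 1 to 4. In bulk RNA, fewer cells of a type and less RNA per cell cannot be told apart.

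Among the secreted products, Adipoq (ENSMUSG00000022878.5, chromosome 16, 23146536 to 23158028, plus strand), which encodes the insulin-sensitising hormone adiponectin, measured 5.99, 4.46, 2.94 and 0.820 CPM in male 1 to 4. The values in female 1 to 4 were 0.180, 5.68, 0.252 and 1.73 CPM. Female 1 and female 3 held 2 reads each, below the floor of 3 reads, while male 1 held 49 and female 2 held 69. The highest library exceeded the lowest 33.2-fold, with a 95% exact binomial interval of the ratio of 8.72 to 282.

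Cfd (ENSMUSG00000061780.5, chromosome 10, 79890853 to 79892655, plus strand) encodes adipsin, the complement protease factor D that cleaves factor B. It was at 42.2, 80.5, 56.0 and 5.03 CPM in male 1 to 4 and at 2.61, 132, 4.66 and 43.3 CPM in female 1 to 4. Cfd varied most of the 8 genes, with an SD of 2.0 on the log2(CPM + 1) scale over the 8 libraries, larger than in 99.9% of tested genes. Its highest library, female 2, exceeded its lowest, female 1, 50.6-fold (interval 35.1 to 75.8).

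Of the lipid droplet proteins, Plin1 (ENSMUSG00000030546.14, chromosome 7, 79720218 to 79732903, minus strand), which coats the droplet and controls access of lipases, had 6.84, 5.33, 5.59 and 1.95 CPM in male 1 to 4. Its values were 1.89, 4.77, 2.14 and 5.2 CPM in female 1 to 4. Plin1 varied least of the 8, with a 3.61-fold range (interval 2.15 to 6.29), and the counting intervals of its 5 higher libraries overlapped. Cidec (ENSMUSG00000030278.11, chromosome 6, 113424634 to 113435760, minus strand), which fuses droplets into a larger one, had 3.91, 4.24, 3.04 and 0.513 CPM by male label. By female label Cidec had 0.992, 5.26, 0.630 and 2.27 CPM, a 10.3-fold range (interval 4.18 to 32.7).

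Lpl (ENSMUSG00000015568.15, chromosome 8, 68880491 to 68907448, plus strand) encodes the enzyme that frees fatty acids from circulating lipoproteins. It had 77.2, 53.0, 43.4 and 16 CPM in male 1 to 4 and 26.6, 49.2, 11.1 and 34.4 CPM in female 1 to 4. Female 3 was its lowest library and male 1 its highest, a 6.96-fold range (interval 5.56 to 8.80).

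Fabp4 (ENSMUSG00000062515.3, chromosome 3, 10204088 to 10208576, minus strand), a cytosolic carrier of fatty acids, had 343, 300, 437 and 93.0 CPM in male 1 to 4. It had 108, 334, 161 and 716 CPM in female 1 to 4. Fabp4 was the only 1 of the 8 whose highest library was female 4, and the range from male 4 was 7.70-fold (interval 7.17 to 8.27). Within female 4 the level of Fabp4 was 3.31 times that of Car3 and 20.8 times that of Lpl, where the other 7 libraries had ratios of 0.966 to 1.85 and of 4.07 to 14.5. Such ratios within a library do not depend on its depth.

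Of the metabolic enzymes, Pck1 (ENSMUSG00000027513.11, chromosome 2, 173153048 to 173159273, plus strand), which in fat cells feeds the synthesis of glycerol for triglyceride, had 6.11, 4.24, 3.82 and 1.13 CPM in male 1 to 4. By female label it had 0.361, 3.62, 1.26 and 2.80 CPM, a 16.9-fold range (interval 6.22 to 64.6) from 4 reads in female 1 to 50 in male 1. Car3 (ENSMUSG00000027559.5, chromosome 3, 14863512 to 14872523, plus strand), which hydrates carbon dioxide, had 282, 301, 253 and 96.3 CPM in male 1 to 4. It had 58.6, 328, 104 and 216 CPM in female 1 to 4, a 5.59-fold range (interval 5.15 to 6.09). The extremes of each range were picked from 8 values and their intervals cover counting error only. Gene positions are those of GENCODE M21 on GRCm38, where no other annotated gene overlaps any of the 8.

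**Figure D1:**
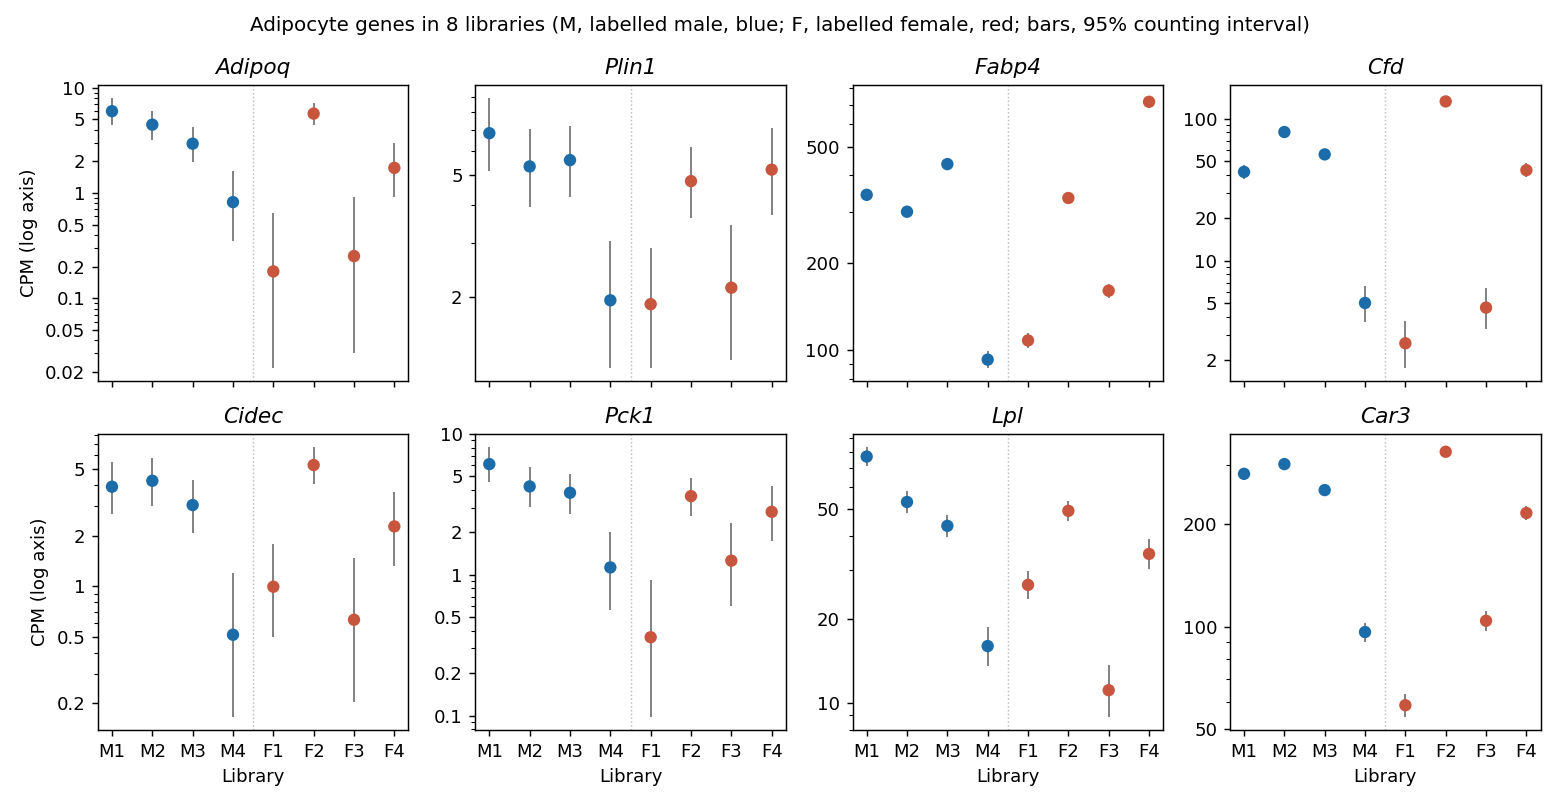
Level of each adipocyte gene in CPM (log axes, a different range in each panel) in the 4 libraries labelled male (M1 to M4, blue) and the 4 labelled female (F1 to F4, red), with 95% exact binomial counting intervals as bars. M4, F1 and F3 are the 3 lowest libraries in every panel, and F4 is highest for Fabp4, at 716 CPM.

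The spread of these genes over the 8 libraries was wide beside that of other genes. The SD of log2(CPM + 1) was between 0.59 for Plin1 and 2.0 for Cfd, with a median of 0.91, where the median of all tested genes was 0.41. The intervals of the 8 ranges above all lay above 2-fold, so the differences between the extreme libraries exceeded counting error. After median ratio scaling the ranges were 25.1-fold for Adipoq, 39.6-fold for Cfd, 3.32-fold for Plin1, 10.1-fold for Cidec, 5.62-fold for Lpl, 8.47-fold for Fabp4, 12.8-fold for Pck1 and 4.38-fold for Car3.

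Pearson's r between pairs of the 8 genes over the 8 libraries ranged from 0.64 for Fabp4 with Lpl to 0.98 for Cfd with Car3, with a median of 0.89 over the 28 pairs. All pairs share the same libraries and depth, and the libraries lie apart as a higher and a lower set, so these values describe that pattern and carry no p. Against the mean of the other 7 genes, r was highest for Car3 (0.97, Spearman's rho 0.95) and lowest for Fabp4 (0.79, rho 0.52). Without the 2 libraries farthest from the median of that mean these were 0.99 and 0.67, and the other 6 genes lay between 0.90 and 0.97.

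**Figure D2:**
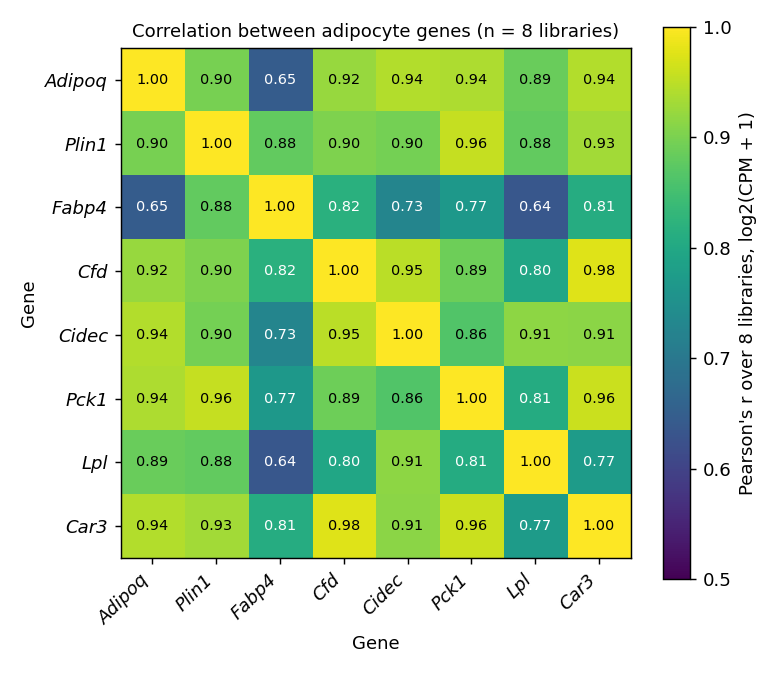
Pearson's r between the log2(CPM + 1) values of each pair of adipocyte genes over the 8 libraries. The values of Fabp4 run lowest, from 0.64 with Lpl to 0.88 with Plin1.

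Over all tested genes, 59.3% of the variance lay on the first principal component, the main direction in which libraries differed. It had male 1, male 2, male 3 and female 2 on its negative side (scores −23.6 to −59.2) and male 4 and female 1, 3 and 4 on its positive side (30.3 to 58.3). The mean of the 8 genes, each centred on its own mean over the libraries, was 0.83, 0.74, 0.56 and −1.07 in male 1 to 4 and −1.25, 0.88, −1.07 and 0.38 in female 1 to 4. Female 4 thus stood with the 4 libraries of the other side, with 7 of 8 adipocyte genes above their means, while 42.7% of all tested genes were above theirs in it. In male 4, 0 of the 8 were above their means, beside 54.4% of all tested genes. The mean had an r of −0.86 with the component (rho −0.86, n = 8 libraries), from −0.45 for Fabp4 alone to −0.95 for Adipoq.

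Other adipocyte genes varied in part in the same way. Of 24 genes on that list 18 were tested, and 7 of these 18 had male 4, female 1 and female 3 as their 3 lowest libraries, beside 8.33% of all tested genes. Plin4, a further droplet coat protein, had 3.79, 5.87, 3.53 and 0.923 CPM in male 1 to 4 and 0.901, 3.95, 0 and 2.67 CPM in female 1 to 4. The adipocyte transcription factor gene Cebpa was at 5.59 CPM in female 2 and had no read in female 3. In that library the floor of 3 reads was 0.378 CPM. The hormone gene Retn (resistin) ranged from 0.451 CPM in female 1 to 4.24 CPM in male 2. The receptor gene Pparg, the master factor of adipocyte differentiation, stayed under the filter, with 0 to 1.33 CPM, and so did the leptin gene Lep, with at most 0.329 CPM and 0 in female 1, 3 and 4. The 3 most abundant genes of the list did not have this order. The desaturase gene Scd1, which Schwann cells also make, had 368 to 553 CPM, the glucose transporter gene Slc2a4 37.4 to 180 CPM and the lipogenic gene Thrsp 33.9 to 144 CPM.

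Genes of brown fat, the heat-producing kind, were also measured. Ucp1, the proton carrier that uncouples respiration in brown fat, had 36.7, 17.0, 24.2 and 3.79 CPM in male 1 to 4 and 1.71, 11.7, 4.54 and 26.0 CPM in female 1 to 4. Its 3 lowest libraries were again male 4, female 1 and female 3. This held for 4 of the 9 tested genes of the list, beside 8.33% of all tested genes. Cox8b and Cox7a1, subunits of cytochrome oxidase, were at 7.73 and 17.7 CPM in female 2 and at 2.27 and 0.934 CPM in female 4. Cox8b was among those 4 genes and Cox7a1 was not. Cidea and Ppargc1a, the most abundant of the list, had 16.8 to 60.6 and 17.5 to 46.2 CPM, and only Cidea was among the 4. The part of other tissues, muscle among them, in these values was not tested. Dio2, which activates thyroid hormone, was highest in female 4, at 38.1 CPM, and at 5.2 to 14.5 CPM elsewhere. Elovl3, a fatty acid elongase of brown fat, had at most 0.541 CPM.

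**Figure D3:**
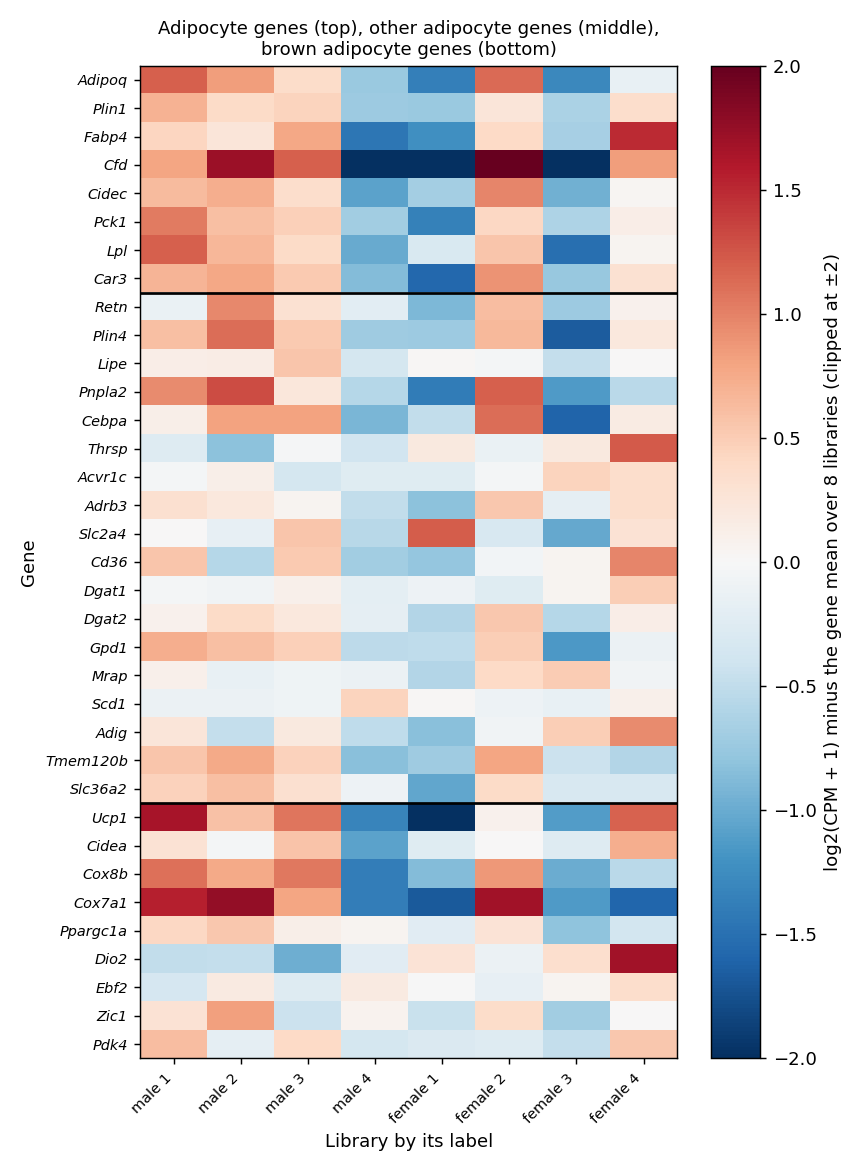
log2(CPM + 1) of the 8 adipocyte genes (top), the tested genes of the other adipocyte list (middle) and of the brown adipocyte list (bottom), each minus its mean over the 8 libraries (columns), in colour from blue (lower) to red (higher) and clipped at ±2. The 8 genes are below their means in male 4, female 1 and female 3, as is Ucp1.

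The partners of the 8 genes were read from lists by role, each with 0 genes called between the labels. Some genes stood on several lists, so the lists are not independent. Counts of genes with the order of the 8 stand beside 8.33% of all tested genes. Of the lipoprotein lipase partners 7 of 15 were tested. Gpihbp1, which carries the enzyme to the capillary wall, had 0.718 to 1.52 CPM, while Angptl4, which inhibits the enzyme, had 23.0, 31.5, 18.6 and 9.03 CPM in male 1 to 4 and 2.88, 26.3, 7.31 and 6.40 CPM in female 1 to 4. Of the lipid droplet proteins 15 of 16 were tested, and 4 had the order of the 8 genes. These 4 included Plin4 and Pnpla2, also on the list of other adipocyte genes, and Cidea, also on the brown fat list. Plin2 and Plin3, droplet proteins of most cells, had 25.1 to 37.2 and 57.3 to 69.6 CPM, and the lipase gene Pnpla2 5.05 CPM in female 1 to 38.4 CPM in male 2.

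Among fatty acid binding proteins, 4 of 9 were tested and Fabp2 and Fabp9 were at 0 in every library. Fabp7, of satellite glia, had 345, 326, 332 and 70.6 CPM in male 1 to 4 and 22.9, 335, 74.9 and 104 CPM in female 1 to 4, and Pmp2, of myelin, 28 to 181 CPM, both with the same 3 libraries lowest. Fabp3, known from muscle and heart, went otherwise, with 180 CPM in male 1, 609 CPM in female 1 and 558 CPM in female 3. Female 3 had the lowest sum of the muscle list given below, 792 CPM. The cells behind Fabp3 here were not tested. Of the 15 other carbonic anhydrases 8 were tested and 0 had the order of Car3, beside 8.33% of all tested genes. So few genes cannot set the family apart from that share. Car2 had 57.1 to 122 CPM and Car10 34.1 to 71.5 CPM.

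In the alternative complement pathway, in which adipsin acts, 9 of 11 genes were tested and 4 had the order of Cfd. C3, the central component, had 29.1, 37.7, 31.8 and 12.1 CPM in male 1 to 4 and 8.56, 33.6, 10.1 and 14.1 CPM in female 1 to 4. Cfb, the substrate of adipsin, had 2.93, 5.66, 1.76 and 0.308 CPM and 0.180, 6.58, 0.252 and 1.20 CPM. The adiponectin receptor genes Adipor1 and Adipor2 had 52.4 to 80.9 and 87.1 to 173 CPM, and 2 of 10 tested genes of that list had the order. In glyceroneogenesis and gluconeogenesis 9 of 12 genes were tested and 1 had it, Gpd1, which is also on the list of other adipocyte genes. G6pc, the liver and kidney enzyme that releases glucose, was at 0 in every library.

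Markers of other cells that make some of the 8 genes were read in the same way, gene by gene, since the sum of a list can rest on its most abundant gene. The genes left out of a sum below were chosen after the values were seen. Here too, counts of genes with the order of the 8 stand beside 8.33% of all tested genes. Endothelial markers, 12 of 12 tested, summed to 266 to 340 CPM in libraries labelled male and 268 to 332 CPM in those labelled female, and they did not move as 1 list. Kdr, Emcn and Tek, 3 of the 12, had the order of the 8 genes, with Emcn, a capillary and venous surface protein, at 15.2, 11.3 and 11.1 CPM in male 4, female 1 and female 3 and at 19.2 to 26.4 CPM elsewhere. The tight junction gene Cldn5 went the other way, with 62.5, 55.7 and 61.1 CPM in those 3 libraries and 21.4 to 49.0 CPM elsewhere.

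Macrophage markers, 11 of 12 tested, also went in both directions, and 2 of the 11, Adgre1 and Lyz2, had the order of the 8 genes. Their sum was 191 to 280 CPM in the male-labelled and 308 to 420 CPM in the female-labelled libraries. The complement gene C1qa, the most abundant of the list, had 72.2 to 140 and 144 to 264 CPM. Its labels did not overlap, as for 4.23% of all tested genes, and it was not called (adjusted p = 0.446 by limma). Male 1 and female 1, whose sex genes went against their labels, had 72.2 and 215 CPM. Without C1qa the sums of the labels overlapped, at 97.9 to 140 and 118 to 168 CPM. Csf1r, the receptor for the macrophage growth factor, had 4.03, 6.85, 2.26 and 1.85 CPM in male 1 to 4 and 0.361, 8.31, 0.504 and 0.667 CPM in female 1 to 4.

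Stromal genes, 14 of 14 tested, included 5 with the order of the 8 genes. The matrix genes Dcn, Col1a1 and Col3a1 were among the 5, and Dcn had 369, 168 and 249 CPM in male 4, female 1 and female 3 and 501 to 827 CPM elsewhere. Gsn, which encodes the actin-severing gelsolin, had 6578 CPM in female 4 and 2101 to 3153 CPM elsewhere. The list summed to 8230 CPM in female 4, its highest library, but without Gsn female 2 was highest, at 1983 CPM, and female 4 had 1651 CPM. The part of endothelial, macrophage and stromal RNA in the levels of the 8 genes was not tested.

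Skeletal muscle markers, 15 of 15 tested, differed among themselves in female 1, where Car3 was lowest. Ckm, the muscle creatine kinase gene, and Atp2a1, the calcium pump of fast fibres, had 446 and 487 CPM there, against 47.0 to 179 and 119 to 273 CPM elsewhere. Mylpf, a myosin light chain gene of fast fibres, had 10.7 CPM there and 70.5 CPM in male 1. Mylpf and Myh4, 2 of the 15, had the order of the 8 genes, beside 8.33% of all tested genes. The list summed to 2853, 2385, 2702 and 1337 CPM in male 1 to 4 and 3134, 2327, 792 and 2186 CPM in female 1 to 4.

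Liver and kidney markers were at or near 0, with Serpina1a, Fgb, Umod, Slc34a1 and Kap at 0 in every library and Alb at most at 0.0980 CPM. Lrp2, at 4.78 to 6.46 CPM, was the only 1 of 10 tested. Of the glia markers, 2 of 10, Mbp and Fabp7, had the order of the 8 genes. Fabp7 was also named above among the fatty acid binding proteins. Erythroid markers, 5 of 5 tested, gave sums of 854 to 2233 CPM (male-labelled) and 881 to 3010 CPM (female-labelled), and 3 of 5 had the order, while the globin gene Hba-a2 was highest in female 3. The part of muscle, glia or blood RNA in these values was not tested. Of the sensory neuron markers 0 of 10 had the order, beside 8.33% of all tested genes. So few genes cannot set this list apart from that share.

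**Figure D4:**
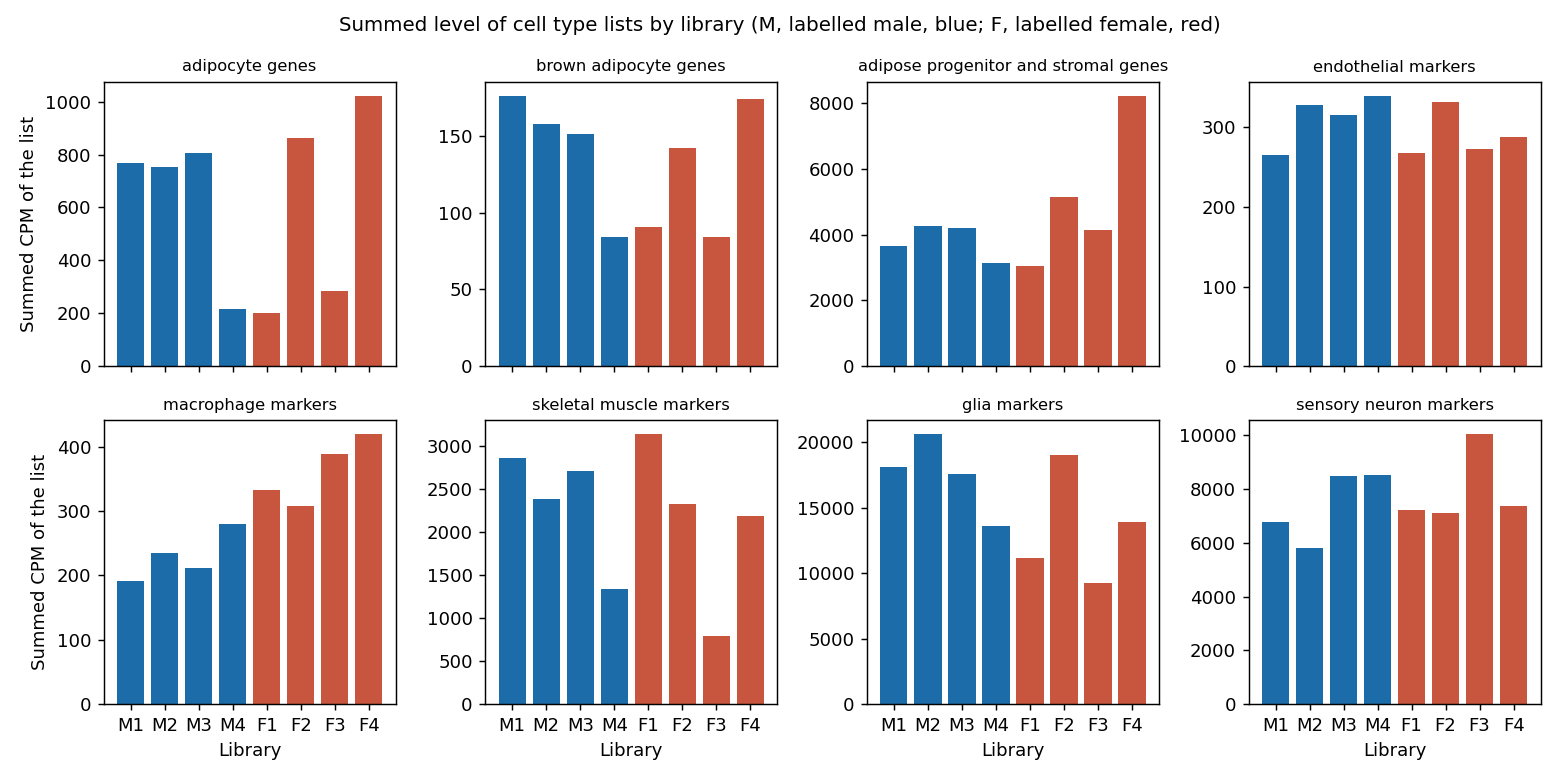
Summed CPM (linear axes from 0) of the adipocyte genes and of 7 other marker lists in the 4 libraries labelled male (M1 to M4, blue) and the 4 labelled female (F1 to F4, red). The adipocyte sum is 199 to 285 CPM in M4, F1 and F3 and 753 to 1022 CPM in the other 5; a sum can join genes that go in opposite directions, such as Ckm and Mylpf of the muscle list, at 446 and 10.7 CPM in F1.

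The 10 other genes whose values followed the mean of the 8 most closely over the 8 libraries were Ces1d, Gm10603, Hspa1b, C87436, Wdr72, Sirt5, Gtf2h3, Ephx2, Dnajc24 and Atp5h, with Pearson's r from 0.96 to 0.98. Ces1d, a carboxylesterase of fat and liver that hydrolyses triglyceride, came first (r = 0.98, rho 0.93), with 0.205 CPM in male 4 and 5.59 CPM in female 2. Ephx2, the soluble epoxide hydrolase gene, had 1.71 to 10.3 CPM and the same rank order as the mean (rho 1). Of 14497 other genes 327 (2.26%) had an r above 0.9. Closest to Adipoq alone were Uckl1, Snhg5, Ift74, Atf7 and Omd, with r from 0.986 to 0.992. They are named for likeness over 8 libraries only.

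The design sets ganglia labelled male against ganglia labelled female, and 0 of the 8 adipocyte genes differed between the labels, beside 0 of 14505 tested genes (0%). Values of the labels overlapped for all 8 genes. Differences of log2(CPM + 1), female minus male, were tested with limma's moderated test and p adjusted by Benjamini-Hochberg over the 14505 genes, which gave the 8 genes adjusted p from 0.482 to 0.999. At an unadjusted p under 0.05 there were 0 of the 8 and 11% of all tested genes. The labels did not overlap for 4.23% of all tested genes.

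The mean of Adipoq was 3.55 ± 2.21 CPM for male and 1.96 ± 2.58 CPM for female labels (SD, n = 4 each), and the log2 difference of −0.84 (SE 0.57) did not pass (adjusted p = 0.496 by limma). Cfd had 45.9 ± 31.5 and 45.7 ± 60.6 CPM, with a log2 difference of −0.83 and a 95% interval of −3.30 to 1.64. Pck1, the gene with the smallest p of the 8, had 3.83 ± 2.05 and 2.01 ± 1.47 CPM (difference −0.71, interval −1.70 to 0.29). These intervals span differences of more than 2-fold, so the test does not show equal levels.

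The means were 4.93 ± 2.09 and 3.5 ± 1.73 CPM for Plin1, 2.93 ± 1.69 and 2.29 ± 2.1 CPM for Cidec, and 47.4 ± 25.3 and 30.3 ± 15.9 CPM for Lpl. Car3 had 233 ± 93.4 and 177 ± 121 CPM, and Fabp4 293 ± 145 and 330 ± 275 CPM. All 8 log2 differences were below 0, with a median of −0.58, where 67.5% of all tested genes were below 0 with a median of −0.18. That of Fabp4 was near 0 (interval −1.32 to 1.32) and turned positive under median ratio scaling, at 0.20, where the median of the 8 was −0.38 and that of all tested genes −0.01.

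The replicate 1 libraries, whose sex genes went against their labels, were the highest (male 1) and the lowest (female 1) library for Adipoq, Plin1 and Pck1. With both left out, 4 of the 8 differences were below 0 and their median was −0.02, with 0 of 8 called beside 0.0414% of all tested genes (0.0345% lower in female). Without female 2, the library labelled female with the highest sum after female 4, the difference of Adipoq was −1.35 with a limma adjusted p of 0.0703, and 0 of 8 passed, where 9.33% of all tested genes did (7.67% lower in female). At an unadjusted p under 0.05 that fit had 2 of the 8, Adipoq and Pck1, beside 31.9% of all tested genes. With array weights, which give less weight to libraries that vary more, Adipoq passed (−1.16, adjusted p = 0.0374), 1 of the 8, beside 30.1% of all tested genes (22% lower in female). Female 2 had the lowest weight, 0.312, and female 4 the highest, 3.13.

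**Figure D5:**
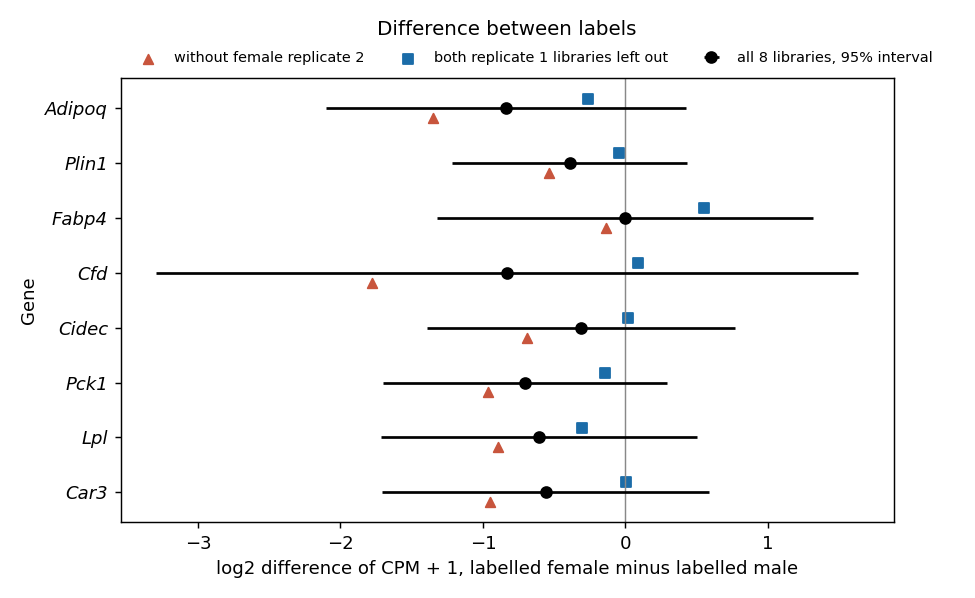
Difference of log2(CPM + 1), labelled female minus labelled male, for the 8 adipocyte genes with 95% intervals (black, all 8 libraries), and the same without female 2 (triangles) and with both replicate 1 libraries left out (squares). All black intervals include 0; without both replicate 1 libraries the values lie between −0.31 and 0.55.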

How the data were processed

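Ganglia RNA was measured in 8 libraries; per the labels' protocols, RNA isolated with TRIzol was depleted of ribosomal RNA, and a QuantSeq kit by Lexogen read the 3′ ends of transcripts. Per the submitters' processing notes, the tools were Cufflinks 2.2.1, Bowtie2 2.2.9, TopHat2 2.1.1 and FastQC 0.11.5, and the builds GRCm38.p4 and mm10. The role of each tool, the annotation and the strand setting are not given in the sources used. The authors deposited values named TPM that behave as CPM: each library sums to 1000000, and 98.3% to 98.6% of values above 0 and below 200 reads come out whole (to 0.05 of a read) when divided by 1 step shared by all genes, where chance gives 10%. The step gave the depth and the reads behind a value; since other values stayed fractional, no count model was used.

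Rows sharing a symbol were summed. The 14505 genes averaging 1 CPM or more were tested as log2(CPM + 1), a scale that understates the change of low genes, with limma 3.58.1 (variance trend, two-sided, R 4.3.3), adjusted p under 0.05. In simulated data of this size the fit called 15 of 100 genes changed 2-fold and 79 of 100 changed 4-fold, with 5 false calls. These folds are of CPM + 1, which for low genes is a larger fold of CPM. The simulated noise was independent between genes, unlike the measured values, so these counts need not hold for the measured libraries. Intervals and the floor of 3 reads cover counting error only. None of the 28 pairs of libraries held identical values. Figures used matplotlib 3.10.9.

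The members and lists were chosen with earlier results of these data known. Named were the 8 members, genes of each list chosen for high mean or, after their values were seen, for their order over libraries, and the genes most like the members. The count of genes with the same 3 lowest libraries was also chosen after the values were seen. Alternatives were 2 pseudocounts, 2 filters, median ratio scaling, array weights, a replicate block and leaving out libraries.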

Additional observations from a re-analysis of the deposited data

Results flagged for a closer look

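Car3 in the libraries labelled male was flagged because male 4, at 96.3 CPM, stood apart from the other 3, at 253 to 301 CPM. On the log2(CPM + 1) scale the gap to the nearest library was 0.845 of the range of the 4, above Dixon's critical value for 4 values. This was the only 1 of 16 groups (8 genes by 2 labels) past that value, where chance flags about 1 group in 20.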

How the results depend on the processing

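Over all genes the count called went from 0 to 4363 with array weights and to 6 with both replicate 1 libraries left out, and ranged from 0 to 1354 when each library was left out in turn, 1354 being without female 2. Among the 8 adipocyte genes the count was 1 with array weights (Adipoq, −1.16) and 0 in every other alternative, including each single library left out. Fabp4 turned positive under median ratio scaling (0.20), with array weights (0.39) and with both replicate 1 libraries left out (0.55), where Cfd (0.086), Cidec (0.020) and Car3 (0.0022) did too; the cause was not tested. Leaving out each library gave log2 differences of −1.35 to −0.52 for Adipoq, −1.78 to −0.04 for Cfd, −0.70 to −0.21 for Plin1, −0.72 to −0.04 for Cidec, −1.04 to −0.21 for Lpl, −0.50 to 0.41 for Fabp4 (positive without male 1, 2 or 3 or female 1 or 3), −1.06 to −0.37 for Pck1 and −0.95 to −0.13 for Car3. Other pseudocounts and filters changed no direction or call. With the replicate block 0 genes passed and Adipoq kept −0.84. Deviations of same-numbered libraries correlated at −0.31, 0.70, −0.15 and 0.44, and those of libraries with different numbers at −0.81 to 0.47. Whether the numbers pair the libraries is not settled by these values. Depth limits Adipoq, Cidec and Pck1, which had 2 to 11 reads in their 3 lowest libraries.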
